A study of Mus musculus with 4 samples.

Results

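Spleen T cells from mice that received regulatory T (Treg) cells lacking both CD226 and TIGIT were set against the T cells of mice that received wild-type Treg cells. Each side was 1 single-cell library, the wild-type one from sequencing lane 3 and the double-null one from lane 4. Of 36140 cells kept over the study's 4 libraries, 16712 belonged to these 2 libraries, and 11819 of those fell into the 3 classes compared. The Treg-origin class held 367 wild-type and 376 double-null cells. Around them stood wild-type conventional T cells, 2750 and 2813 of the CD4 class and 2098 and 3415 of the CD8 class. Each cell was given an antibody ratio, the log2 of its CD45.1 over its CD45.2 antibody count with 1 added to each. A cell was taken as Treg-origin below -0.6 and as conventional above 2.2. Conventional cells were split by whether Cd4 or Cd8a plus Cd8b1 had more transcripts.

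CD226 and TIGIT are receptors on T cells and natural killer cells that bind the same ligands, CD155 and CD112, on antigen-presenting and stressed cells. CD226 passes on an activating signal, while TIGIT, which binds CD155 more tightly, is inhibitory and is prominent on Treg cells. In acute graft-versus-host disease, donor conventional T cells attack the recipient's tissues, and transferred donor Treg cells restrain them. The comparison asks how loss of both receptors from the Treg cells goes along with the state of those cells and of the wild-type T cells beside them.

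Recipients were BALB/c mice given a lethal dose of 900 cGy. They received T cell-depleted bone marrow of CD45.1+ CD45.2+ C57BL/6 mice and Treg cells (CD4+ Foxp3-GFP+ CD25hi) of CD45.2+ CD45.1- C57BL/6 mice, then, after 2 days, CD4+ and CD8+ conventional T cells of wild-type CD45.1+ CD45.2- C57BL/6 mice. The Treg cells were CD226+/+ TIGIT+/+ on one side and CD226-/- TIGIT-/- on the other, and all of them carried the Foxp3-GFP reporter. Values of the CD226-/- TIGIT+/+ library (lane 3) and the CD226+/+ TIGIT-/- library (lane 4) are set beside them. Live H-2Kb+ TCRb+ cells were sorted from the spleen 8 days into graft-versus-host disease, and a sample was a pool of 3. The conventional and bone marrow cells were wild type in all 4 libraries. Cells of 1 library are not replicates. With 1 library a side there was no replicate and no test, and a difference of genotype cannot be told apart from one of pool, library or lane. Brackets hold exact 95% intervals, which cover counting error only: Clopper-Pearson for shares, Poisson for sums of UMIs (unique transcript molecules) and conditional binomial for ratios.

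The classes were checked against transcripts. Xist, expressed from the inactive X chromosome of female cells, stood at 726 and 685 CPM (UMIs per 1000000 of the class) in Treg-origin cells and at 0.615 and 0.550 in CD4 cells. The Y-linked gene Ddx3y had the opposite placement, with 1.301 and 1.95 CPM against 41.0 and 43.4. Foxp3, which defines Treg cells, had a UMI in 24.5% and 23.9% of Treg-origin cells and in 1.53% and 0.675% of the deeper CD4 cells. A UMI of Foxp3 or Ikzf2 was found in 76.3% [71.6, 80.6] of wild-type and 73.4% [68.6, 77.8] of double-null Treg-origin cells, so the class is named for the donor, not for every cell's present state. The median depth was 5372 and 4604.5 UMIs in Treg-origin, 9013 and 7785 in CD4 and 11901 and 10015 in CD8 cells, wild type before double null. The double-null library stood apart in its antibodies: its median ratio was 3.41, while the other 3 libraries had 2.98 to 3.02. It shared 16 barcodes with the wild-type library, 0.209% of the smaller. Cells with both antibodies, which may be bone marrow progeny or doublets, were kept out of the 3 classes, and no doublet caller was used.

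The targeted genes came first. Cd226 stood at 31.2, 4.01, 32.5 and 4.39 CPM in Treg-origin cells of the wild-type, CD226-/-, TIGIT-/- and double-null libraries, the order used throughout. These were 72 and 9 UMIs in the wild-type and double-null libraries, a ratio of 0.141 [0.0618, 0.282]. Both CD226-/- libraries were low, and wild-type CD4 cells next to them had 67.3, 72.5, 64.0 and 66.5 CPM. Tigit had 9.11, 5.15, 8.60 and 5.86 CPM in Treg-origin cells, from 21 and 12 UMIs, and its ratio of 0.643 [0.288, 1.37] spans 1. These counts do not check the TIGIT label, and which part of either gene was deleted is not given in the sources used here.

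CD8 cells made up more of the conventional cells beside double-null Treg cells. Their share of the conventional cells resolved as CD4 or CD8 was 43.3%, 45.6%, 48.4% and 54.8%. The wild-type interval ran from 41.9% to 44.7% and the double-null one from 53.6% to 56.1%, so the double-null library was the highest of the 4 beyond counting error, and the TIGIT-/- library of the same lane was next. Requiring 2 or more UMIs of one coreceptor and none of the other gave 55.3% and 69.3%. About the same share of conventional cells stayed unresolved on both sides, 24.4% and 24.5%.

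Treg-origin cells were 4.79%, 3.67%, 4.45% and 4.15% of kept cells. The double-null share [3.75, 4.58] stood at -0.644 percentage points [-1.28, -0.0164] from the wild-type one [4.33, 5.30] under the fixed cutoffs. With cutoffs moved by each library's median antibody ratio, chosen after seeing the data, the shares were 4.79% and 4.54%, and the interval of their difference spans 0. The interval also spans 0 with cutoffs of -1 and 2.6 (-0.569 points [-1.15, 0.00726]). So it does for cells with 1000 or more genes and at most 5% mitochondrial UMIs (-0.393 [-1.07, 0.272]). Cells with both antibodies made up 11.4%, 10.7%, 11.02% and 4.79%, lowest in the double-null library, whose antibody ratio was displaced. With moved cutoffs that library had 9.48%. Treg-origin cells with more Cd8 than Cd4 transcripts numbered 10 of 367 and 21 of 376, or 2.72% [1.31, 4.95] and 5.59% [3.49, 8.41], with overlapping intervals.

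**Figure D1:**
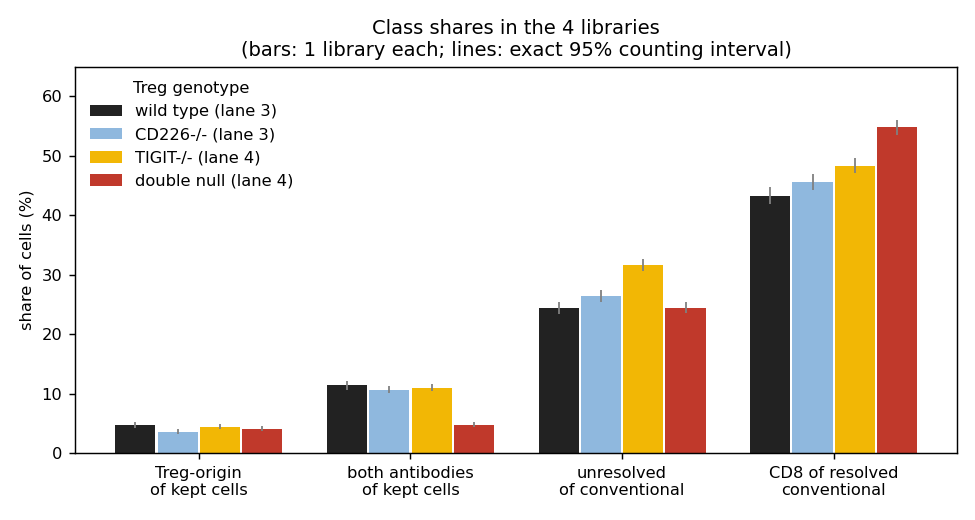
Share of cells (%, vertical axis) in 4 classes (horizontal axis) for each library (bars, 1 library each), with exact 95% counting intervals as lines. The CD8 share is highest in the double-null library at 54.8%, and the share with both antibodies is lowest there at 4.79%.

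Treg-origin cells without both receptors carried more transcripts of the chemokine genes Ccl3 and Ccl5 and of both chains of the interleukin-18 receptor. They carried fewer of the galectin-7 gene Lgals7 and of 3 of 7 measured sterol-synthesis genes. Wild-type conventional cells lay on the same side by less for the named genes of these. The genes were picked as extremes in Treg-origin cells, so smaller differences elsewhere were largely fixed in advance and are no support. Other genes named for Treg-origin cells changed side, such as Wdr70 (1.11 and 1.13-fold in CD4 and CD8 cells) and, in CD8 cells, Trbc1 (1.22). In CD4 and CD8 cells Ccl3 was 2.13 and 1.21-fold, Ccl5 1.35 and 1.27 and Lgals7 0.700 and 0.751. There Il18r1 was 1.21 and 1.27-fold and Il18rap 1.26 and 1.15. Of 5185 genes that averaged 20 CPM or more over the 2 libraries, 82 (1.58%) lay past 1.5-fold higher and 63 (1.22%) past 1.5-fold lower. Counts of list members past 1.5-fold in Treg-origin cells are to be read beside these shares. The median log2 ratio of all of them was 0.02, and the 5th and 95th percentiles were -0.37 and 0.42. Log2 ratios here carry a pseudocount of 1 CPM, which understates the difference of low genes. A member of a list described as above 0 had a log2 ratio above 0 and was higher in the double-null library. The genes named here are the extremes of these ratios by their counting intervals, so their intervals are no test. The level of a class does not tell more expressing cells from more transcript in each, and shares of cells with a UMI are given beside it where they were computed.

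Ccl3, an inflammatory chemokine (chr11:83647844-83649355 on mm10, minus strand), led the genes of known function. It stood at 99.8, 44.6, 118 and 274 CPM, highest in the double-null library and lowest in the CD226-/- one, with a double-null over wild-type ratio of 2.74 [2.35, 3.21]. Few cells carried much of it: 5 cells held 72.2%, 74.4%, 92.7% and 46.7% of its UMIs, so the order of these levels rests on few cells. After every cell was thinned to 2000 UMIs, which left out 14 wild-type and 22 double-null cells, 5.38%, 3.49%, 2.47% and 11.3% of Treg-origin cells had a Ccl3 UMI. Before thinning the shares were 7.08% and 15.2% in the wild-type and double-null libraries. The double-null library was the highest on this count too.

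Its neighbour Ccl4 (chr11:83662584-83664683, plus strand), likewise an inflammatory chemokine, had 261, 79.5, 136 and 325 CPM and a ratio of 1.24 [1.11, 1.39]. In the wild-type library 5 cells held 77.6% of Ccl4 UMIs, and the log2 ratio turned from 0.31 to -0.07 under the stricter cell filter. Its thinned share of cells was 5.10%, 3.49%, 3.46% and 10.5%. Ccl5 (chr11:83525778-83530518, minus strand), a chemokine of activated T cells, stood at 758, 1654, 1438 and 1572 CPM with a ratio of 2.08 [1.957, 2.201], and there the wild-type library was the low one while the other 3 lay close together. Of Ccl5 UMIs, 5 cells held 33.7%, 28.9%, 26.6% and 27.6%, a spread between cells that the counting interval does not cover. Its thinned shares were 16.1%, 19.7%, 15.3% and 26.6%, against 21.8% and 34.0% unthinned in the wild-type and double-null libraries. Ccl1, the ligand of CCR8, went the other way at 102, 110.4, 57.8 and 16.1 CPM, but 5 cells held 60.9% and 66.7% of its UMIs.

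The Ccl3 promoter is shown because this gene lay past 1.5-fold higher in Treg-origin and in CD4 cells. It comprises 250 bases upstream of the RefSeq start on GRCm38.p6, chr11:83649379-83649628, minus strand, 5′ to 3′, with GGAAA on either strand, the core that NFAT factors bind, in capitals.
Ccl3: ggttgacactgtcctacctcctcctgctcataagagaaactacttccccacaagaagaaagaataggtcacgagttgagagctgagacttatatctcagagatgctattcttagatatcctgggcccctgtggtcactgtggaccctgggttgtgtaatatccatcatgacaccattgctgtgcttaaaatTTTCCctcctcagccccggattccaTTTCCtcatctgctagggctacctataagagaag
It holds 2 matches, whose first printed bases lie 59 and 34 bases before the start, and GGAAA occurs in 55.6% of the 32841 RefSeq promoter windows of this length. TGANTCA (6.75% of windows) and TGACGTCA (1.55%), both also searched on either strand, had no match in these bases. Of 8 genes looked up, 4 had an entry (Ccl3, Rsrp1, Klrk1 and Gstp1), while Ccl4, Ccl5, Klrg1 and Hist1h2ap had none.

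Both chains of the interleukin-18 receptor were higher. Il18r1, the ligand-binding chain, had 65.5, 83.0, 47.8 and 119 CPM and a ratio of 1.82 [1.48, 2.24]. Il18rap, its partner chain, had 34.7, 45.21, 27.7 and 66.9 CPM and a ratio of 1.93 [1.45, 2.57]. The double-null library was the highest and the TIGIT-/- library of the same lane the lowest for both. Ifng, the interferon-gamma gene, followed with 82.4, 58.4, 58.7 and 133 CPM and a ratio of 1.62 [1.34, 1.956]. These 3 were the members past 1.5-fold among 9 measured Th1 and inflammatory cytokine genes, against 1.58% of all genes past 1.5-fold higher. Their list had a median log2 ratio of -0.16 with 4 members above 0, Il12rb1 (0.765-fold) and Tbx21 (0.813-fold) lowest, and the median was 0.05 on thinned cells.

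Cxcr6, the receptor for CXCL16 on tissue-resident and effector T cells, stood at 191, 163, 228 and 325 CPM with a ratio of 1.70 [1.504, 1.92]. It was the member past 1.5-fold among 13 measured homing genes (list median 0.02), where the integrin gene Itga4 (1.49-fold) came next and Itgb7 (0.778) and Itgb1 (0.803) were lowest. Lgals3, encoding galectin-3, had 424, 435, 342 and 688 CPM and a ratio of 1.62 [1.49, 1.76]. The kinase of the G1 phase Cdk6 had 72.0, 67.5, 87.4 and 132 CPM and a ratio of 1.83 [1.503, 2.23]. For these 3 genes the double-null library was the highest and the other 3 lay closer to each other.

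Further lower-expressed genes had larger ratios from fewer UMIs. The tetraspanin gene Cd9 had 31 and 74 UMIs in the wild-type and double-null libraries (ratio 2.69 [1.74, 4.23]), the riboflavin kinase gene Rfk 49 and 100 (2.30 [1.62, 3.30]) and the pleckstrin gene Plek 49 and 96 (2.204 [1.55, 3.18]). Rsrp1, which encodes an arginine- and serine-rich protein, was spread over many cells at 258, 377, 270.3 and 423 CPM (ratio 1.64 [1.47, 1.82]), high in both libraries whose Treg cells lack CD226. Gm47283 had the largest ratio, 5.63 [3.14, 10.8], from 14 and 70 UMIs, with 6.07, 68.1, 31.5 and 34.2 CPM. GENCODE places it on the Y chromosome (90784738 to 90816464, mm10). Near-identical copies can share reads, so its identity is uncertain. Klrd1, the CD94 chain of NKG2 receptors, would have ranked among these 12 at 18.2, 51.5, 33.9 and 57.6 CPM, but 5 cells held 52.5% of its UMIs.

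Lgals7, encoding galectin-7, led the lower genes. It stood at 547, 489, 654 and 283 CPM with a ratio of 0.518 [0.468, 0.571], and 30.3% and 21.5% of thinned wild-type and double-null cells had a UMI of it. Trbc1, one of the pair of T cell receptor beta constant genes, had 1273, 936, 1151 and 699 CPM and a ratio of 0.549 [0.515, 0.585]. The other one, Trbc2, was higher with 1769, 2471, 2105 and 2198 CPM and a ratio of 1.24 [1.19, 1.297], and reads from these near-identical copies can be split between them. A Trbc1 UMI was found in 59.5%, 46.7%, 55.3% and 34.2% of thinned cells, and the cause of these differences was not tested. The double-null library was the lowest of the 4 for Lgals7 and Trbc1.

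Other lower genes served varied functions. Cd274, the gene of the PD-1 ligand PD-L1, had 27.8, 25.8, 24.8 and 13.2 CPM, from 64 and 27 UMIs in the wild-type and double-null libraries (ratio 0.475 [0.291, 0.755]). Plac8 stood at 436, 382, 309 and 294 CPM (0.675 [0.609, 0.748]) and Cldnd1 at 262, 241, 279 and 176 (0.671 [0.587, 0.765]). The hypoxia-induced lipid droplet gene Hilpda had 68.1, 57.8, 49.7 and 39.0 CPM (0.573 [0.432, 0.755]), Xlr4c a ratio of 0.452 [0.310, 0.650], Wdr70 0.484 [0.307, 0.748] and AA467197 0.628 [0.496, 0.791]. AA467197 was lower in both libraries with TIGIT-/- Treg cells, which are also those of lane 4 (90.2, 92.7, 45.4 and 56.6 CPM). Gstp1 and Hist1h2ap are taken up with the other classes.

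Another 11 genes would have ranked among the lower 12 but had over 50% of the UMIs of their richer library in 5 cells: S100a8, S100a9, Ngp, Camp, Lcn2, Chil3, Prtn3, Lyz2, Ccl1, Ly6c2 and Fcer1g. Most are granulocyte genes. The summed level of 10 neutrophil markers was 1823, 5.15, 1731 and 3.90 CPM in Treg-origin cells, and 2, 7, 2 and 7 of the 10 were at 0. Without the 9 wild-type and 1 double-null cells that held more than 10 UMIs of another lineage's markers, the sums were 3.60 and 3.91 CPM. Macrophage and monocyte markers summed to 177 and 64.4 CPM and CD8 T cell markers to 136 and 110.3, and the part of these cells in other Treg-origin differences was not tested.

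**Figure D2:**
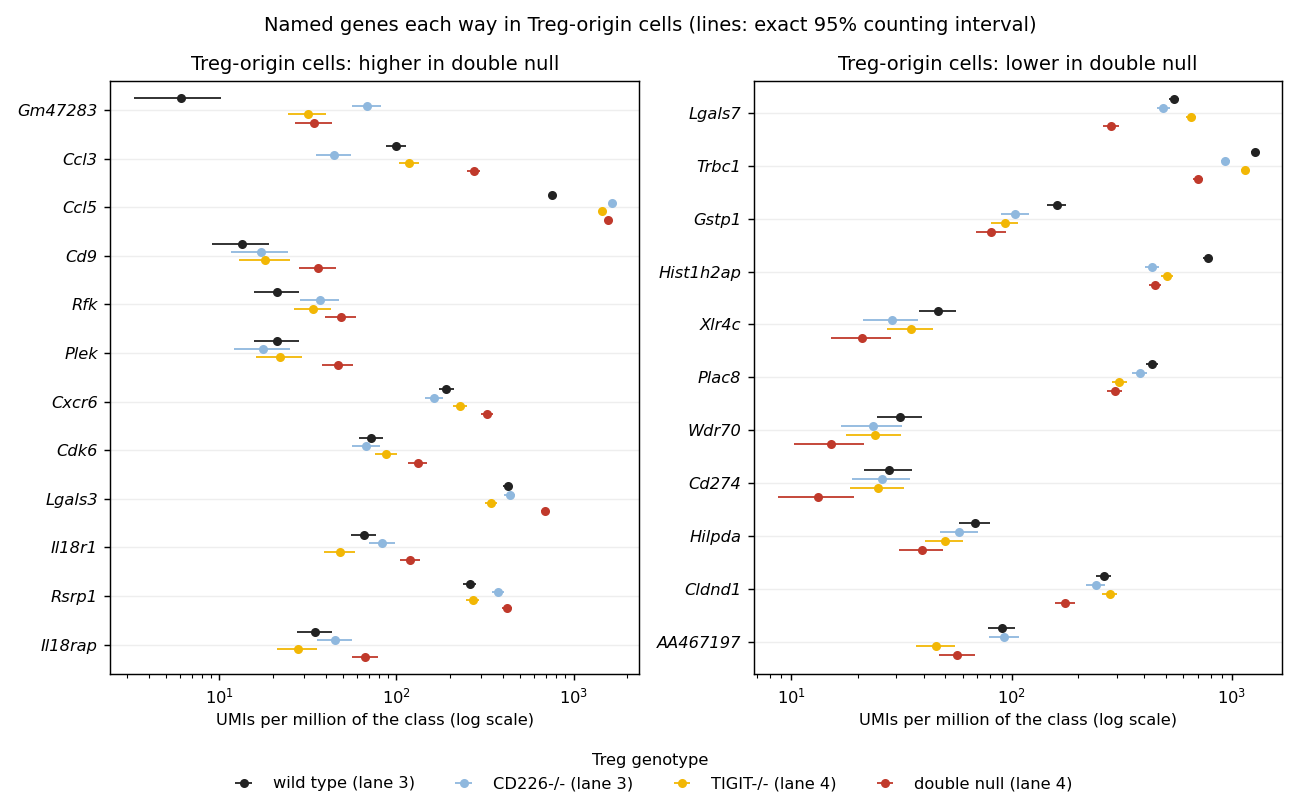
Level in Treg-origin cells (UMIs per 1000000 of the class, log axis) of the named genes higher and lower in the double-null library, with 1 point per library and exact 95% counting intervals as lines. Ccl3 reads 99.8, 44.6, 118 and 274 and Lgals7 547, 489, 654 and 283 from the wild-type to the double-null library.

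Genes of Treg identity lay evenly on both sides of 0. Of 20 measured members 10 lay above 0 and 10 below, with a median log2 ratio of 0.01. Il1rl1, the interleukin-33 receptor of tissue Treg cells, was past 1.5-fold higher (39.5, 56.1, 41.1 and 64.9 CPM, 1.64 [1.2502, 2.17]), and the costimulatory receptor gene Icos followed (193, 257, 243 and 274 CPM, 1.42 [1.253, 1.61]). Ebi3, a subunit of interleukin-35, was past 1.5-fold lower (36.4, 28.0, 41.1 and 22.4 CPM, 0.616 [0.420, 0.893]), and Capg was next (0.801 [0.732, 0.876]). Foxp3 stood at 54.6, 64.1, 47.3 and 58.1 CPM, with a ratio of 1.06 [0.820, 1.38] that spans 1, and the inhibitory receptor gene Ctla4 at 205, 178, 201 and 281 CPM (1.37 [1.21, 1.55]).

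Inhibitory receptor genes lay on both sides, 3 of 6 measured above 0 and 3 below (median -0.03, alternatives -0.05 to 0.14). Pdcd1, encoding PD-1, had 78.9, 71.5, 75.5 and 127 CPM and a ratio of 1.61 [1.32, 1.95], while Lag3 had 128, 122, 174 and 92.7 CPM and 0.725 [0.601, 0.873], and Vsir (0.843-fold) was also low. Among 5 measured T follicular helper genes 4 lay above 0 (median 0.41, alternatives 0.22 to 0.53), with Pdcd1 and Icos highest and Slamf6 (1.32-fold) and Maf (0.925) lowest. Tox, a transcription factor of chronically stimulated T cells, stood at 27.3, 30.9, 36.8 and 50.8 CPM (1.86 [1.35, 2.58]). It was the 1 member past 1.5-fold higher among 8 effector and exhaustion factors, of which 3 lay above 0 and 5 below (median -0.06, alternatives -0.09 to 0.12), and Nfil3 (0.647 [0.447, 0.926]) was past 1.5-fold lower with Tbx21 (0.813-fold) next. Of 6 TNF receptor family genes 4 lay above 0 (median 0.03), Tnfrsf4 (0.899-fold) and Tnfrsf18 (0.909) lowest. Tnfrsf25, whose product costimulates Treg cells, was the member past 1.5-fold and high in both libraries without CD226 on Treg cells (15.2, 41.8, 13.8 and 30.3 CPM, 1.99 [1.296, 3.11]), as was Slamf1 (33.8, 52.6, 33.9 and 63.9 CPM, 1.89 [1.42, 2.53]).

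Cytotoxicity genes split. Of 11 measured, 2 were past 1.5-fold higher, against 1.58% of all genes: Klrd1 and Gzmk (24.3, 80.1, 71.6 and 42.0 CPM). The median was 0.31 (alternatives 0.08 to 0.54). The abundant granzyme genes lay lower in the double-null library, Gzmb at 4203, 3331, 3842 and 3475 CPM (0.827 [0.802, 0.853]) and Gzma at 1661, 1217, 1406 and 1289.8 (0.776 [0.739, 0.816]), with Ctsw lowest (0.750-fold). Naive and memory genes lay above 0 in 9 of 11 members with a median of 0.29, which was 0.07 on thinned cells. Klf2, a regulator of T cell egress, had 371, 545, 405 and 508 CPM (1.37 [1.248, 1.498]) and Slamf6 118, 163, 133 and 157 (1.32 [1.12, 1.56]), while Satb1 (0.942-fold) and S1pr1 (0.991) were lowest.

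Glycolysis and sterol-synthesis genes leaned lower, while 5 of 9 amino acid response genes lay above 0 (median 0.12, alternatives -0.03 to 0.12), with Psat1 (1.18-fold) and Mthfd2 (1.15) highest and Phgdh (0.803) and Slc1a5 (0.942) lowest. All 13 measured glycolysis genes lay below 0, with a median of -0.26 and 1 past 1.5-fold, against 1.22% of all genes. That gene was the glucose transporter gene Slc2a3 (51.2, 49.2, 50.1 and 32.2 CPM, 0.629 [0.458, 0.858]). Pfkl, of phosphofructokinase, followed (0.705 [0.511, 0.965]), and Gpi1 (0.939-fold) and Ldha (0.934) were nearest to 1. Of 7 measured sterol-synthesis genes 3 were past 1.5-fold lower and the median was -0.49 (alternatives -0.55 to -0.24): Cyp51 (39.5, 28.6, 24.4 and 23.9 CPM, 0.606 [0.419, 0.867]), Msmo1 (29.9, 21.2, 16.7 and 18.5 CPM, 0.620 [0.406, 0.934]) and Fdps (78.5, 61.8, 57.3 and 49.3 CPM, 0.628 [0.487, 0.805]). Hmgcs1 (1.08-fold) and Sc5d (0.938) were the highest of that list. For these 3 genes the wild-type library was the highest of the 4.

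Interferon-stimulated genes lay below 0 in 17 of 22 members (median -0.14), from Oas3 (0.718 [0.551, 0.932]) and Usp18 (0.738 [0.482, 1.12]) at the low end to Slfn5 (1.29 [0.884, 1.87]) and Ifit3 (1.56 [1.03, 2.40]) at the high end, the latter past 1.5-fold. Genes of MHC class I antigen presentation lay below 0 in 17 of 18 members with a median of -0.09 and none past 1.5-fold, Erap1 (0.798-fold) and Psmb9 (0.876) lowest and Nlrc5 (1.05) and H2-Q4 (0.997) highest. Ribosome biogenesis genes lay above 0 in 12 of 16 members with a median of 0.18. Nol11 (25.2, 26.3, 42.0 and 48.3 CPM) and Wdr12 (32.1, 30.3, 34.4 and 56.1 CPM) were past 1.5-fold higher, against 1.58% of all genes. Of 22 mitosis genes 14 lay above 0 (median 0.05, alternatives -0.17 to 0.15), with Kif20a past 1.5-fold higher (1.85 [1.19, 2.93]), and the proliferation marker Mki67 had a ratio of 1.06 [0.943, 1.18]. Among 5 measured type 2 genes Il1rl1 was past 1.5-fold higher and Cysltr1 (0.589 [0.377, 0.904]) and Il4 (0.612 [0.434, 0.855]) past 1.5-fold lower. Of all genes 1.58% were past 1.5-fold higher and 1.22% lower. However, 5 cells held 59.2% and 62.5% of Il4 UMIs, and in cells with more Cd4 than Cd8 transcripts the log2 ratio of Il4 turned to 0.54.

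The differences of the leading genes were examined with and without a Treg transcript. Cells with a UMI of Foxp3 or Ikzf2 numbered 280 and 276, and cells without 87 and 100, in the wild-type and double-null libraries. The ratio of Ccl3 was 2.75 [2.25, 3.39] with and 2.51 [1.97, 3.23] without such a UMI, that of Cxcr6 1.70 [1.47, 1.9599] with and 1.67 [1.32, 2.12] without, and that of Lgals3 1.61 [1.47, 1.78] with and 1.62 [1.38, 1.92] without. Ccl5 differed more, with 2.48 [2.32, 2.66] with and 1.20 [1.06, 1.35] without. Lgals7 had 0.547 [0.481, 0.621] with and 0.440 [0.375, 0.515] without and Trbc1 0.481 [0.446, 0.519] with and 0.777 [0.687, 0.878] without. For all 6 genes the side of 1 was the same in both sets. The genes were chosen as extremes over these same cells, so this agreement was largely fixed in advance and is no support. The intervals of Ccl5 and of Trbc1 did not overlap between the sets, but they cover counting error only. A difference between the sets was not tested. Whether a cell yields a UMI of Foxp3 or Ikzf2 depends on its depth.

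**Figure D3:**
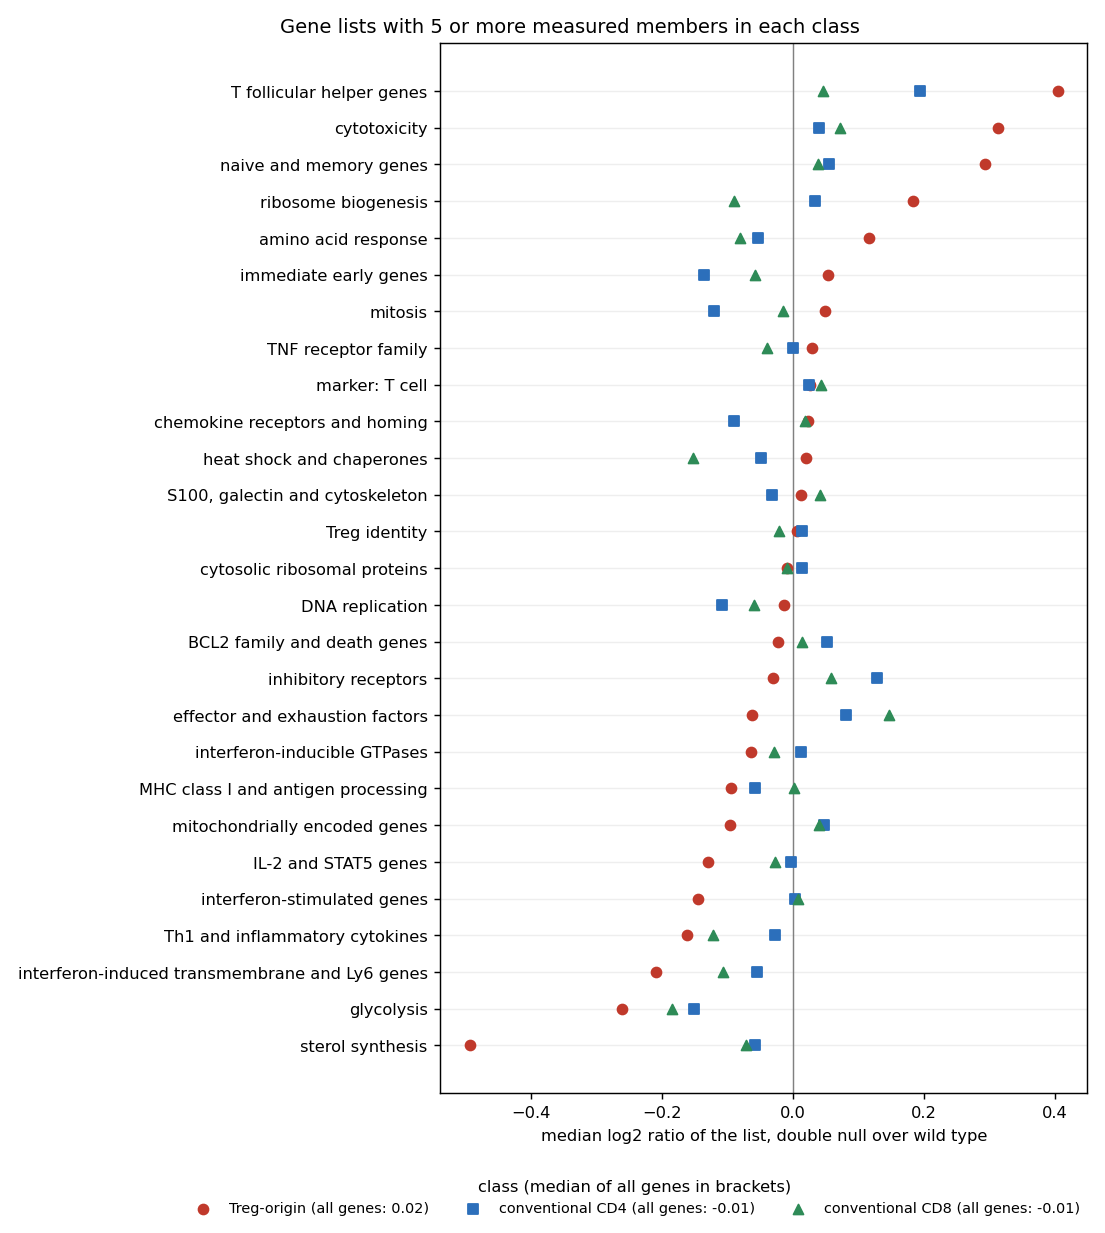
Median log2 ratio, double-null over wild type (horizontal axis), of each gene list (rows) with 5 or more measured members in every class, with 1 marker per class. The Treg-origin medians run from -0.49 for sterol synthesis to 0.41 for T follicular helper genes, beside a median of 0.02 over all genes.

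Wild-type CD4 cells beside double-null Treg cells had higher levels of Ccl3 and Ccl4 transcripts. Of 5113 genes, 6 (0.117%) lay past 1.5-fold higher and 3 (0.0587%) past 1.5-fold lower, and the median of all genes was -0.01. Ccl3 stood at 121, 202, 137 and 259 CPM, a ratio of 2.13 [2.05, 2.22], and Ccl4 at 169.6, 274, 210.3 and 353, a ratio of 2.08 [2.01, 2.15]. Both libraries with CD226-/- Treg cells were above both others, and the double-null one was the highest. After thinning, 4.82%, 5.77%, 4.003% and 8.26% of CD4 cells had a Ccl3 UMI and 5.48%, 6.25%, 4.98% and 9.61% a Ccl4 UMI, and unthinned 9.27% and 14.4% and 10.6% and 15.2% in the wild-type and double-null libraries. More cells carried them in the double-null library. Ccl5 had 194, 272, 88.8 and 262 CPM (1.35 [1.302, 1.398]), with the TIGIT-/- library the lowest, and Ccl1 225, 169, 281 and 202 (0.897 [0.865, 0.931]).

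**Figure D4:**
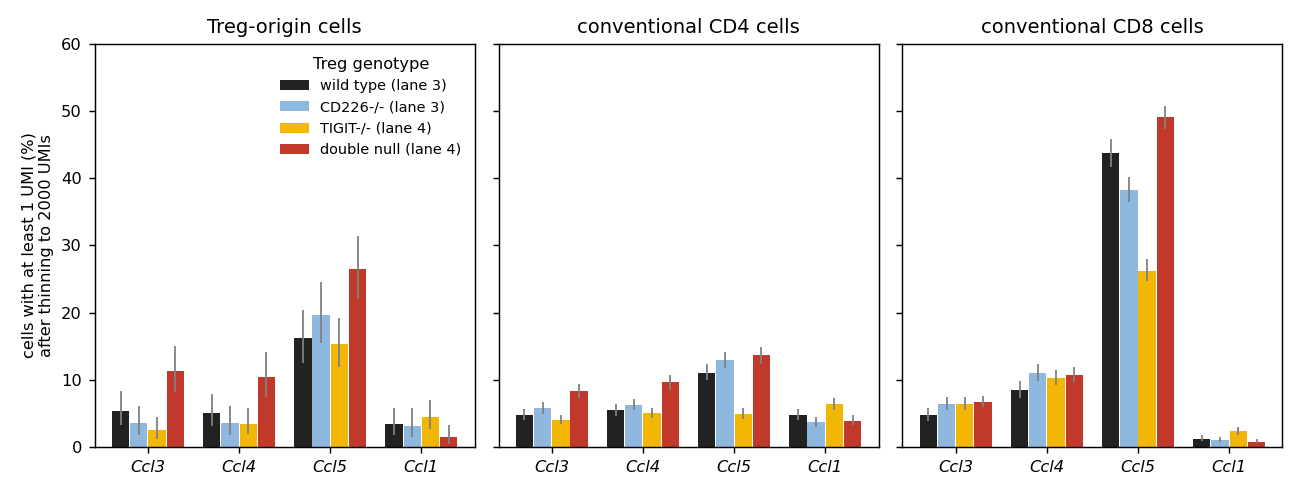
Share of cells with at least 1 UMI (%, vertical axis) of 4 chemokine genes in each class and library after thinning every cell to 2000 UMIs, with exact 95% counting intervals as lines. Ccl3 and Ccl4 are highest in the double-null library in Treg-origin and CD4 cells; in CD8 cells Ccl3 reads 4.74%, 6.42%, 6.43% and 6.69%.

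The remaining CD4 genes higher in the double-null library were of mixed kinds. Igfbp7, which binds insulin-like growth factors, had 39.98, 45.6, 33.4 and 68.4 CPM (1.71 [1.59, 1.84]), and Rsrp1 209, 270.5, 195 and 315 (1.51 [1.46, 1.56]). The endosome tethering gene Eea1 had 79.3, 89.8, 79.5 and 114 CPM (1.44 [1.37, 1.53]) and S100a4, of a calcium-binding protein, 1590.1, 2041, 1420.1 and 2143 (1.35 [1.33, 1.36]). Tsc22d3 and Zfp36l2, genes of quiescent T cells, stood at 26.0, 43.8, 33.2 and 39.0 and 47.9, 76.1, 59.97 and 67.1 CPM, lowest in the wild-type library. Thap2 had a ratio of 1.48 [1.32, 1.66] and Gm8369 one of 1.37 [1.32, 1.43]. Haemoglobin Hbb-bs, a red cell transcript, had 15.0, 19.1, 9.15 and 30.2 CPM, and the neutrophil gene S100a9 was set aside because 5 cells held 95.9% of its UMIs.

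Gzma, encoding granzyme A, led the lower CD4 genes of known T cell function. It stood at 1027, 891, 814 and 608 CPM with a ratio of 0.592 [0.581, 0.604], and 37.8%, 36.5%, 37.9% and 31.0% of thinned cells had a UMI (61.0% and 53.3% unthinned in the wild-type and double-null libraries). By level the wild-type library was the highest and the double-null one the lowest. Gzmb was 1569, 1161, 1231 and 1269 CPM (0.809 [0.797, 0.821]), with the wild-type library above the other 3. The Notch regulator gene Dtx1 had 102, 88.6, 97.4 and 68.3 CPM (0.673 [0.634, 0.714]), Lgals7 134, 94.5, 191 and 93.8 (0.700 [0.665, 0.736]), Asb2 25.5, 14.9, 23.3 and 17.8 (0.699 [0.620, 0.786]), and Itgb7, the gut-homing integrin chain, 436, 389.8, 408 and 336 (0.772 [0.751, 0.793]). Ncln had a ratio of 0.695 [0.621, 0.777] and Pdia4, a chaperone of the endoplasmic reticulum, one of 0.748 [0.701, 0.798].

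Division and metabolism genes of CD4 cells leaned lower by small amounts. DNA replication genes lay below 0 in 25 of 26 members (median -0.11; Cdc6 0.794-fold and Rrm2 0.840 lowest, Rpa2 1.07 and Slbp 0.992 highest). Mitosis genes lay below 0 in 21 of 22 (median -0.12; Plk1 0.810 and Hmmr 0.861 lowest, Kif11 1.09 and Bub1b 0.986 highest), and glycolysis genes in 12 of 14 (median -0.15; Pfkl 0.825 and Eno1 0.833 lowest, Slc16a1 1.19 and Hk1 1.06 highest). No member of these lists was past 1.5-fold. T follicular helper genes lay above 0 in 6 of 6 members with a median of 0.19. Pdcd1 stood highest at 138, 166, 119.9 and 182 CPM (1.32 [1.27, 1.38]) and Slamf6 next (1.24 [1.18, 1.31]), both higher in the libraries with CD226-/- Treg cells, and Btla (1.10-fold) and Sh2d1a (1.12) were lowest. Of 13 cytotoxicity genes 9 lay above 0 (median 0.04), Gzmk (1.19-fold) and Fasl (1.14) highest and Gzma and Gzmb lowest.

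Wild-type CD8 cells beside double-null Treg cells had more Klrk1 and Tox and less Klrg1. The ratios of Klrk1, Tox and Klrg1 were 1.06, 1.31 and 0.520 in CD4 cells and 0.296, 1.86 and 1.30 in Treg-origin cells. However, Klrk1 in Treg-origin cells and Klrg1 in CD4 cells averaged below the minimum of 20 CPM. Their ratios there rest on low levels and are not counted among the genes past 1.5-fold. Of 5057 genes in CD8 cells, 7 (0.138%) lay past 1.5-fold higher and 6 (0.119%) past 1.5-fold lower. Klrk1, encoding the activating receptor NKG2D, stood at 144, 229, 180.5 and 233 CPM, a ratio of 1.62 [1.56, 1.68], and the wild-type library was the lowest. A Klrk1 UMI was found in 23.3%, 34.1%, 27.5% and 34.5% of thinned CD8 cells, and in 54.0% and 67.0% of unthinned wild-type and double-null ones. Klrg1, an inhibitory receptor of terminally differentiated effector cells, had 32.2, 15.4, 18.7 and 11.1 CPM and the lowest ratio of the class, 0.345 [0.307, 0.386]. It was highest in the wild-type library, with a UMI in 6.22%, 2.98%, 3.44% and 2.30% of thinned cells and in 22.8% and 9.31% of unthinned cells of the wild-type and double-null libraries.

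Tox had 22.2, 30.01, 23.4 and 36.0 CPM in CD8 cells with a ratio of 1.62 [1.48, 1.78], higher in both libraries with CD226-/- Treg cells. It was the member past 1.5-fold among 8 effector and exhaustion factors (median 0.15, alternatives -0.14 to 0.16), followed by Eomes (28.9, 26.3, 21.4 and 37.4 CPM, 1.295 [1.19, 1.41]), with Tbx21 (0.881-fold) and Bhlhe40 (0.899) lowest. Jaml, a junctional adhesion molecule, had 49.4, 67.3, 63.2 and 76.4 CPM (1.55 [1.45, 1.65]), Serp2 30.4, 37.3, 28.8 and 47.1 (1.55 [1.43, 1.68]), and the phosphatase gene Ptpn4 19.4, 25.9, 23.5 and 29.7 (1.53 [1.39, 1.70]). S100a4 stood at 1001, 1571, 1061 and 1449 CPM (1.45 [1.43, 1.47]) and Rsrp1 at 187, 248, 179.5 and 288 (1.54 [1.49, 1.59]). Sfn (1.45-fold), Serpinb1a (1.44), Pwwp2a (1.44), Zfp36l2 (1.35) and Rnaset2a (1.35) followed. For Serpinb1a (18.3, 38.1, 33.5 and 26.4 CPM) and Zfp36l2 (55.2, 86.0, 81.9 and 74.7) the CD226-/- and TIGIT-/- libraries stood above the double-null one. For Sfn, Pwwp2a and Rnaset2a the double-null library was the highest. The antibody light chain gene Igkc was set aside with 80.1% of its UMIs in 5 cells.

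Among lower CD8 genes, Gzmm, encoding granzyme M, had 34.5, 33.7, 30.8 and 20.8 CPM (0.603 [0.549, 0.662]) and Cd7, a T and natural killer cell surface protein, 53.9, 47.4, 51.3 and 33.2 (0.615 [0.571, 0.662]). Hilpda stood at 28.3, 22.97, 27.3 and 18.0 CPM (0.635 [0.574, 0.702]) and the arginine-synthesis gene Ass1 at 69.9, 51.7, 66.4 and 50.9 (0.728 [0.684, 0.774]). For Gzmm, Cd7 and Hilpda the double-null library was the lowest and the other 3 lay above it. The main granzymes of CD8 cells did not follow Gzmm: Gzma was 8919, 8569, 8354 and 9466 CPM (1.06 [1.06, 1.07]) and Gzmb 5013, 4233, 4404 and 5329.9 (1.06 [1.06, 1.07]). Of 14 measured cytotoxicity genes 10 lay above 0 (median 0.07), with Klrk1 and Klrd1 (1.15-fold) highest and Gzmm and Lamp1 (0.916) lowest.

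**Figure D5:**
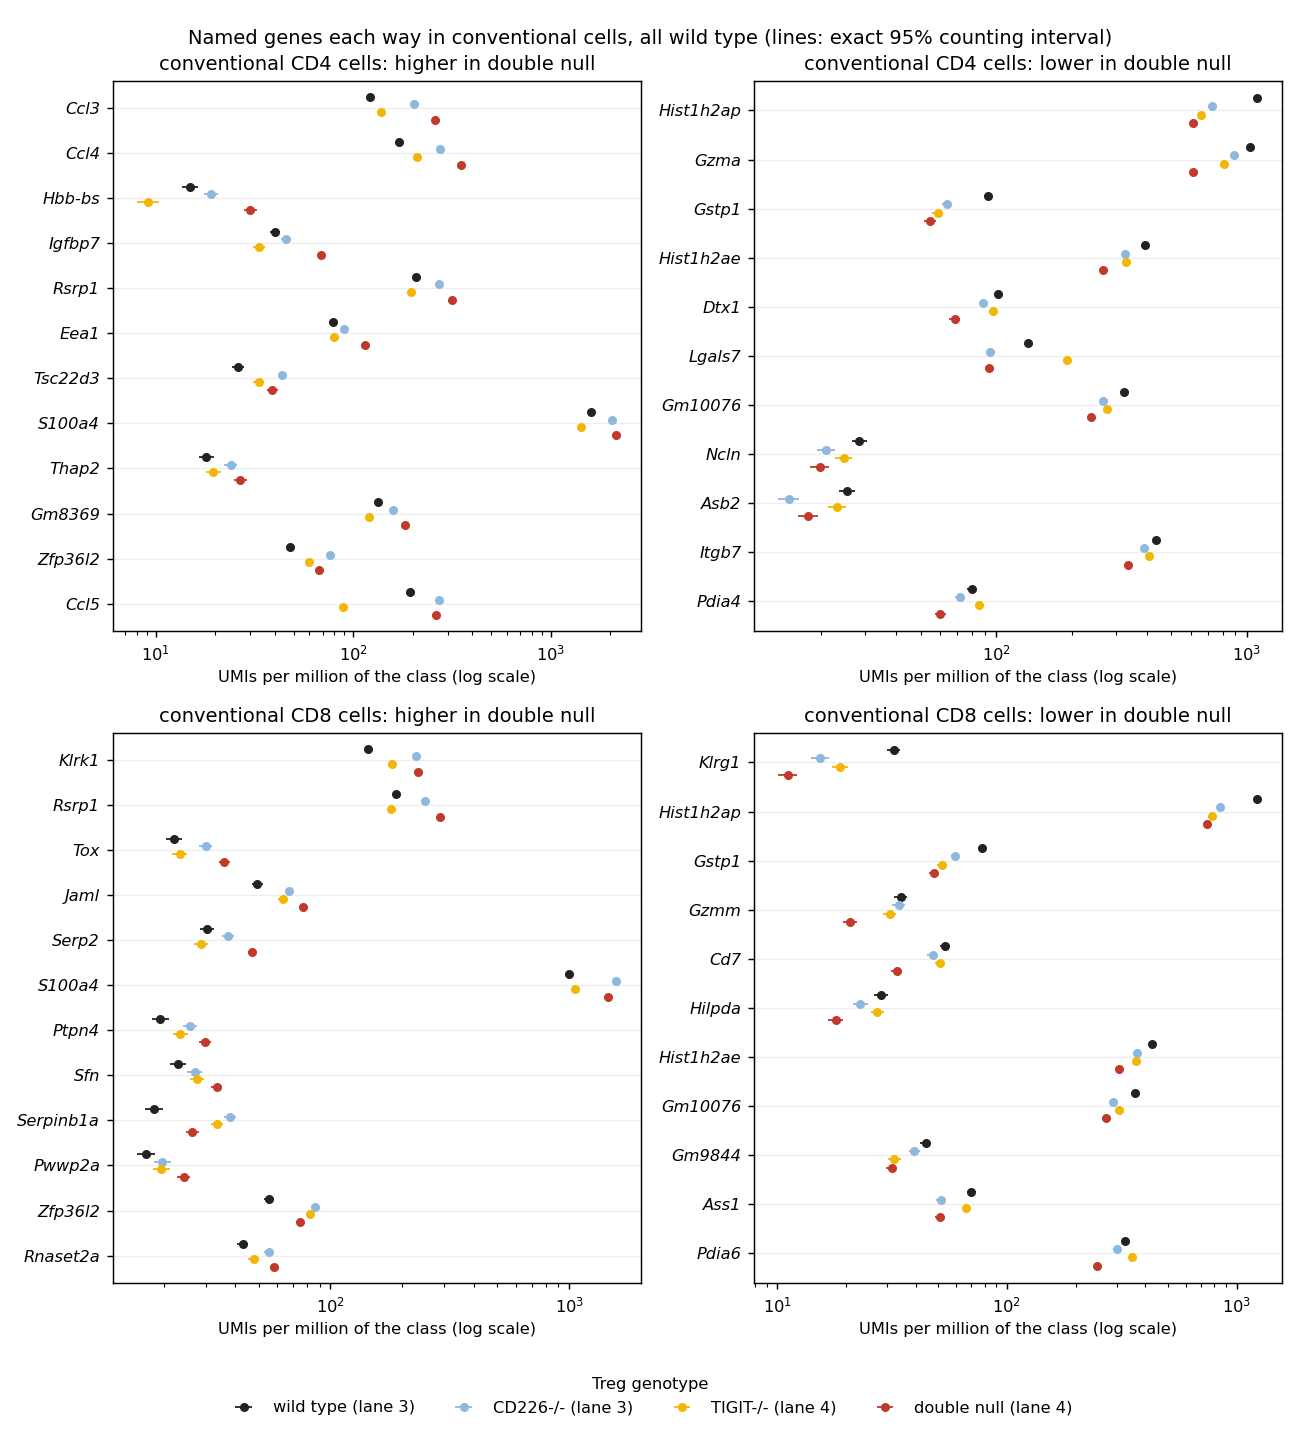
Level in wild-type conventional CD4 cells (top) and CD8 cells (bottom) of the named genes higher and lower in the double-null library (UMIs per 1000000 of the class, log axis), with 1 point per library and exact 95% counting intervals as lines. In CD4 cells Ccl3 reads 121, 202, 137 and 259, and in CD8 cells Klrg1 reads 32.2, 15.4, 18.7 and 11.1.

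Chaperone and glycolysis genes of CD8 cells lay lower, beside a median log2 ratio of -0.01 over all genes of the class. Glycolysis genes were below 0 in 13 of 14 members (median -0.18), with Eno1 at 608, 498, 509 and 475 CPM (0.781 [0.765, 0.797]) and Pfkl (0.808-fold) lowest and Slc16a1 (1.09) and Slc2a1 (0.992) highest. Heat shock and chaperone genes were below 0 in 12 of 13 (median -0.15), and Hspa5, the chief chaperone of the endoplasmic reticulum, was lowest at 524, 489, 586 and 411 CPM (0.785 [0.767, 0.802]), with Hsph1 (0.857-fold) next and Cct2 (1.02) and Dnaja1 (0.970) highest. After Pdia4 and Pdia6 had appeared among the named genes, 12 genes of this compartment were looked at (Hspa5, Hsp90b1, Pdia3, Pdia4, Pdia6, Calr, Canx, Dnajb11, Manf, Sdf2l1, Creld2 and Hyou1), chosen after their values were seen. In CD8 cells all 12 had a ratio below 1, from 0.735 to 0.960 (median log2 ratio -0.31), none past 1.5-fold. In CD4 cells all 12 did as well (0.748 to 0.961), and in Treg-origin cells 10 of 12 did. The TIGIT-/- library of the same lane held the highest level of all 12 genes in CD8 cells, as for Pdia6 with 326, 303, 351 and 247 CPM.

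Several named genes stood on the same side in all 3 classes, in Treg cells with the deletions and in wild-type T cells alike. Among them were Lgals7, Hilpda, Plac8, Ccl5, Tox and Zfp36l2, while others such as Wdr70 and Gzma did not. The share of all genes on the same side in all 3 classes is not given here, so these examples have no reference. Past 1.5-fold in every class were Rsrp1 on the higher side and Hist1h2ap and Gstp1 on the lower side. Rsrp1 was near that threshold: its log2 ratio of 0.59 in CD4 cells was 0.55 with every cell weighted equally, and its 0.62 in CD8 cells was 0.56 on thinned cells, both short of the 1.5-fold line. Hist1h2ap, a histone gene of the replication-dependent cluster whose reads may be shared with near-identical copies, had 779, 435, 509 and 448 CPM in Treg-origin, 1100.1, 729, 657 and 613 in CD4 and 1231, 844, 777 and 741 in CD8 cells. Gstp1, a glutathione transferase, had 160.0, 104, 93.1 and 81.0 CPM in Treg-origin cells. It had 93.0, 63.6, 58.6 and 54.6 CPM in CD4 and 78.2, 59.7, 52.1 and 48.0 in CD8 cells. In all 3 classes the wild-type library stood above the other 3 for both genes. The noncoding gene Gm10076 (0.778, 0.739 and 0.744-fold) was highest in the wild-type library as well, Hist1h2ae was 0.721, 0.685 and 0.713-fold, and Gm9844 was among the lower CD8 genes (0.711).

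Rsrp1 and S100a4 were high in both libraries with CD226-/- Treg cells in all 3 classes, and S100a4 in Treg-origin cells had 1034, 1458, 859 and 1571 CPM (1.52 [1.44, 1.60]). The cold-inducible gene Rbm3, chosen after its values were seen, had the same lowest and highest library in all 3 classes: it stood at 1518, 1544, 1226 and 1969 CPM in Treg-origin, 1745, 1776, 1379 and 2172 in CD4 and 1623, 1676, 1320.2 and 2009.7 in CD8 cells, lowest in the TIGIT-/- and highest in the double-null library of lane 4. Whether these shared differences go with the Treg genotype, the pool or the library cannot be told apart.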

How the data were processed

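Single-cell libraries were made with the 10x Genomics 3' v3 kit and TotalSeq-A antibodies to CD45.1 and CD45.2, per the labels' protocols. The authors deposited filtered UMI counts of 31053 gene features and 2 antibodies per barcode, per the file headers. Cell Ranger 3.1.0 and mm10 are named in the submitters' processing notes, and settings beyond that are not given in the sources used here. Cells needed 500 detected genes and no more than 10% mitochondrial UMIs, which left 7654 of 8597 wild-type and 9058 of 9863 double-null barcodes. Counts were summed over the cells of a class and divided by the total of that class to give CPM, log2 ratios were taken with a pseudocount of 1 CPM, and genes needed a mean of 20 CPM over both libraries. No test was run and no p-value computed.

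For each class the 12 genes higher and the 12 lower whose 95% interval lay farthest from 1 were named, leaving out genes with over 50% of the UMIs of their richer library in 5 cells, and for each list its 2 highest and 2 lowest members, those past 1.5-fold and a fixed set of state genes. Members and lists were chosen with earlier results of these data known. A few items that these rules select are not reported here. Doublets were not called. Python 3.11.15 with numpy 2.4.6 and scipy 1.17.1 was used, and the scripts were tested on simulated data. R 4.3.3 with edgeR 4.0.16 gave TMM factors for one alternative scaling and median-of-ratios size factors served for another. Gene coordinates are from GENCODE vM21 (mm10), and the promoter is from RefSeq (GRCm38.p6).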

Additional observations from a re-analysis of the deposited data

How the results depend on the processing

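No paired analysis was possible because each group had 1 library, and no replicate could be left out. Among Treg-origin genes, 82 lay past 1.5-fold higher and 63 lower. These counts were 401 and 338 with a mean of 5 CPM, 336 and 303 with cells thinned to 2000 UMIs, 166 and 108 with every cell weighted equally, and 220 and 154 where Cd4 UMIs exceeded Cd8 UMIs. A pseudocount of 5 CPM gave 54 higher, and cells with 1000 or more genes and at most 5% mitochondrial UMIs gave 102 lower. In CD4 cells 6 higher and 3 lower became 18 and 15 with 5 CPM, and the lower count was 11 on thinned cells, 8 with equal weights and 6 with 2 or more coreceptor UMIs. In CD8 cells 7 higher and 6 lower became 19 and 22 with 5 CPM. The CD8 higher count was 4 with antibody cutoffs of -1 and 2.6 and 4 with a pseudocount of 5 CPM, and the lower count was 11 on thinned cells.

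The double-null minus wild-type share of cells with both antibodies was -15.2 percentage points with cutoffs of -1 and 2.6 and -1.94 with cutoffs moved by the median antibody ratio. With 2 or more coreceptor UMIs the difference was 14.0 points for the CD8 share and -2.85 for the unresolved share. List medians changed sign under at least 1 alternative for 15 of 28 lists in Treg-origin, 7 of 28 in CD4 and 10 of 27 in CD8 cells, most of them near 0. Among lists with a median at least 0.1 from 0, this held for 4 of 13, 0 of 7 and 2 of 6. In Treg-origin cells the 4 were Th1 genes (0.052) and amino acid response (-0.031) on thinned cells, type 2 genes (0.22) where Cd4 UMIs exceeded Cd8 UMIs, and IL-2 and STAT5 genes (0.018) with 5 CPM. In CD8 cells the 2 were Th1 genes (0.017) with 2 or more coreceptor UMIs and effector and exhaustion factors (-0.14) with 5 CPM. Il4 in Treg-origin cells turned to a log2 ratio of 0.54 in those same cells. The causes were not tested, beyond that a lower CPM minimum tests more genes. Depth limits the Treg-origin class most, where 20 CPM is few UMIs.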
